A study of Mus musculus with 11 samples.

Results

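In serum-starved mouse fibroblasts, 81 of the 21684 genes in the count table stood at no more than 0.5 times the lower wild-type (WT) level in every library of 3 knockout lines. The 81 genes were selected on their measured levels. Levels in CPM were a gene's count over the library total times 1000000, both WT libraries had to reach 2 CPM, and all 9 knockout libraries had to lie at or below 0.5 times the smaller WT value. Of the 21684 genes, 10866 met the WT condition. The Y-linked genes Kdm5d, Uty, Ddx3y and Eif2s3y met the same thresholds and were left out. The drop against WT is thus how the genes were chosen, and it is described here without a test. The differences between the knockout lines were not used by the rule, and these were tested.

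The cells were NIH/3T3, an established mouse embryonic fibroblast line, grown for 24 h in medium with serum and then for 24 h without it, a condition in which fibroblasts leave the cell cycle and form a primary cilium. All 4 groups carried this same treatment: 2 WT libraries and 3 libraries for each of 3 knockouts, which carry the labels Sox5 KO, Nono KO and Xap5 KO. The labels name neither clones nor guides, and nothing states that replicates were separate cultures, so the p-values measure the spread between these libraries, which may be technical. Each knockout was taken as 1 line, and the knocked-out gene and anything else that sets a line apart from the WT cells cannot be told apart.

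As background, Xap5 is the protein whose mouse gene symbol is Fam50a, a nuclear protein associated with RNA splicing. NONO is an RNA- and DNA-binding protein of paraspeckles that acts in transcription and splicing. SOX5 is a DNA-binding protein of the HMG-box family that lacks a strong activation domain of its own and is best known from cartilage and neural crest. The primary cilium is a single antenna-like organelle of the resting cell that receives signals such as Hedgehog ligands.

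Library totals ran from 30205878 to 43498383 counts. Fam50a and Nono were low in the lines named for them, with log2 fold changes of -3.04 (standard error, SE, 0.0874, edgeR quasi-likelihood adjusted p = 7.67e-17) and -3.47 (SE 0.0791, edgeR adjusted p = 2.44e-18) against WT, while Sox5 was itself one of the 81 genes and is described with them. Each of 13 fibroblast markers reached 1 CPM in at least 1 library, and 12 did so in all; Fap had 0 and 0.145 CPM in WT. Their summed levels were 27044 to 27317 CPM in WT, 20246 to 21975 in Xap5 KO, 48057 to 52977 in Nono KO and 22175 to 22482 in Sox5 KO. All 7 epithelial markers stayed under 1 CPM in every library. Summed levels of 6 chondrocyte markers were 364 to 366 CPM in WT and 139.9 to 154 in Xap5 KO, 173 to 198 in Nono KO and 104 to 126 in Sox5 KO, mostly from Sox9. Col2a1 had 1.06 and 1.62 CPM in WT, at most 0.782 in Xap5 KO and Nono KO, and 11.2, 10.1 and 11.8 in Sox5 KO, while Acan, Col9a1, Matn1 and Comp stayed under 1 CPM throughout. The 6 neural markers summed to 41.2 to 43.6 CPM in WT, 22.2 to 35.9 in Xap5 KO, 28.6 to 31.3 in Nono KO and 2.04 to 2.61 in Sox5 KO, with Tubb3 and Rbfox3 under 1 CPM throughout. Endothelial, skeletal muscle and adipocyte markers each summed to at most 5.04 CPM in any library, and haematopoietic markers to at most 10.9 CPM. The Y-linked genes summed to 213 and 217 CPM in WT and to between 0 and 0.368 CPM in the knockout libraries. These differences run with the same WT and knockout labels as the 81 genes, and their part in the levels of the 81 genes was not tested.

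The 250 bases upstream of the annotated start are shown for 4 of the genes, because the set is defined by a common drop in RNA: Grem1, which had the deepest drop over the 3 lines, Dlk1 and Pkd2, which had the highest WT levels in CPM, and Sox5, the targeted gene that is also in the set. They are RefSeq sequences of GRCm38.p6, read 5′ to 3′ on the gene's strand. Capitals mark matches to any of 6 short motifs searched on both strands: the SOX core ACAAT, the longer SOX site AACAAT that contains it, the E-box CACGTG, the TATA box TATAAA, the CCAAT box CCAAT and the AP-1 site TGANTCA.
Grem1 (chr2:113758649-113758898, minus strand): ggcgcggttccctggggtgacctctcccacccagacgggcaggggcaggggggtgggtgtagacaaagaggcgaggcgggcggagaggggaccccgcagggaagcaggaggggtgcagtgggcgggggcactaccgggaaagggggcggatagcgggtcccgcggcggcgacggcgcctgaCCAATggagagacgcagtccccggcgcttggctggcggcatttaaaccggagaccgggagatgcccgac
Dlk1 (chr12:109452573-109452822, plus strand): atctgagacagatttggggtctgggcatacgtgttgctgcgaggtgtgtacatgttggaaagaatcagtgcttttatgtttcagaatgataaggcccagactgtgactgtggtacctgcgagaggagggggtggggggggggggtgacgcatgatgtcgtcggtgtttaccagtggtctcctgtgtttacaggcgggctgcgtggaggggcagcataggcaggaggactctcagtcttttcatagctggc
Pkd2 (chr5:104459207-104459456, plus strand): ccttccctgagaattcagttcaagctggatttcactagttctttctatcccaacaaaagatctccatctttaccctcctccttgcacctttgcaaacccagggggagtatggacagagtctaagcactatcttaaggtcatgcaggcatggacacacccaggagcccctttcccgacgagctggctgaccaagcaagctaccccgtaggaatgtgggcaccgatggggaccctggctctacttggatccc
Sox5 (chr6:143947107-143947356, minus strand): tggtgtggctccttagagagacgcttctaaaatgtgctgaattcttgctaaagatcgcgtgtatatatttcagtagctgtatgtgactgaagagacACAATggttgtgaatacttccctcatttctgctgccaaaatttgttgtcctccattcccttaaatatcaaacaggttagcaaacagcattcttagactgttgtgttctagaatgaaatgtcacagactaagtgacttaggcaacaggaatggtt
The Grem1 window held a CCAAT box starting at -69 from the start site and the Sox5 window a SOX core starting at -154, while the Dlk1 and Pkd2 windows held none of the 6 motifs. GC content was 72.0% in the Grem1 window, 54.8% in Dlk1, 52.8% in Pkd2 and 39.6% in Sox5.

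Windows of 300 bases, 250 before and 50 after the start, were found in RefSeq for 58 of the 81 genes (90 windows) and for 10396 of the 13332 tested genes (13261 windows). The SOX core was in 18.9% of the windows of the 81 genes and in 21% of all tested windows, and the longer SOX site in 6.67% and 5.83%. The CCAAT box was in 22.2% against 38.1%, and the AP-1 site in 11.1% against 5.32%. The E-box was in 6.67% against 9.44% and the TATA box in 7.78% against 7.65%. Median GC content was 60.7% against 60.3%, and the median ratio of observed to expected CpG was 0.598 against 0.737. These shares are descriptions of the letters in the windows. They are per window, so a gene with several starts counts several times, and some windows of a gene overlap, as for Begain. The longest transcript had a median length of 4.79 kb in the 81 genes and 3.38 kb in 13293 tested genes with an annotated length.

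All 81 genes were protein coding and all passed the filter on low counts that left 13332 tested genes, as the 2 CPM required in WT ensures. Their mean WT level ran from 2.26 to 1655 CPM with a median of 15, against a median of 28.5 CPM over all tested genes. In WT, 8 of the genes reached 100 CPM, 41 lay between 10 and 100 CPM and 32 under 10 CPM. Between the WT libraries, the larger value was a median of 1.1 times the smaller, with the widest ratio, 2.20, in Pcdha9. In bulk RNA, fewer cells that express a gene and less RNA per cell cannot be told apart. The median level over the 81 genes was 18.5% of the WT mean in the Xap5 KO line, 16.6% in the Nono KO line and 16.3% in the Sox5 KO line, and the highest single gene stood at 46.0%, 43.3% and 46.9%.

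The genes ranged from absent to just under the threshold. In the highest of the 9 knockout libraries, 6 genes stood at no more than 0.05 of the lower WT value, 24 at no more than 0.25, and 27 above 0.4. The 5 just inside the threshold were Zfp709 (0.492), Enpp3 (0.492), Ccn3 (0.494), Irf5 (0.495) and Il17rd (0.498). Just outside it were Lrrc17 (0.501), Hmga2 (0.504), Efna1 (0.505), Hcn3 (0.507) and Col4a6 (0.508). Where every library of a group had 3 or fewer counts of a gene, the group is called at the floor, and a minimum fold against 3 counts per library is given. This held in at least 1 line for 15 genes and in all 3 lines for Hoxa10.

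**Figure D1:**
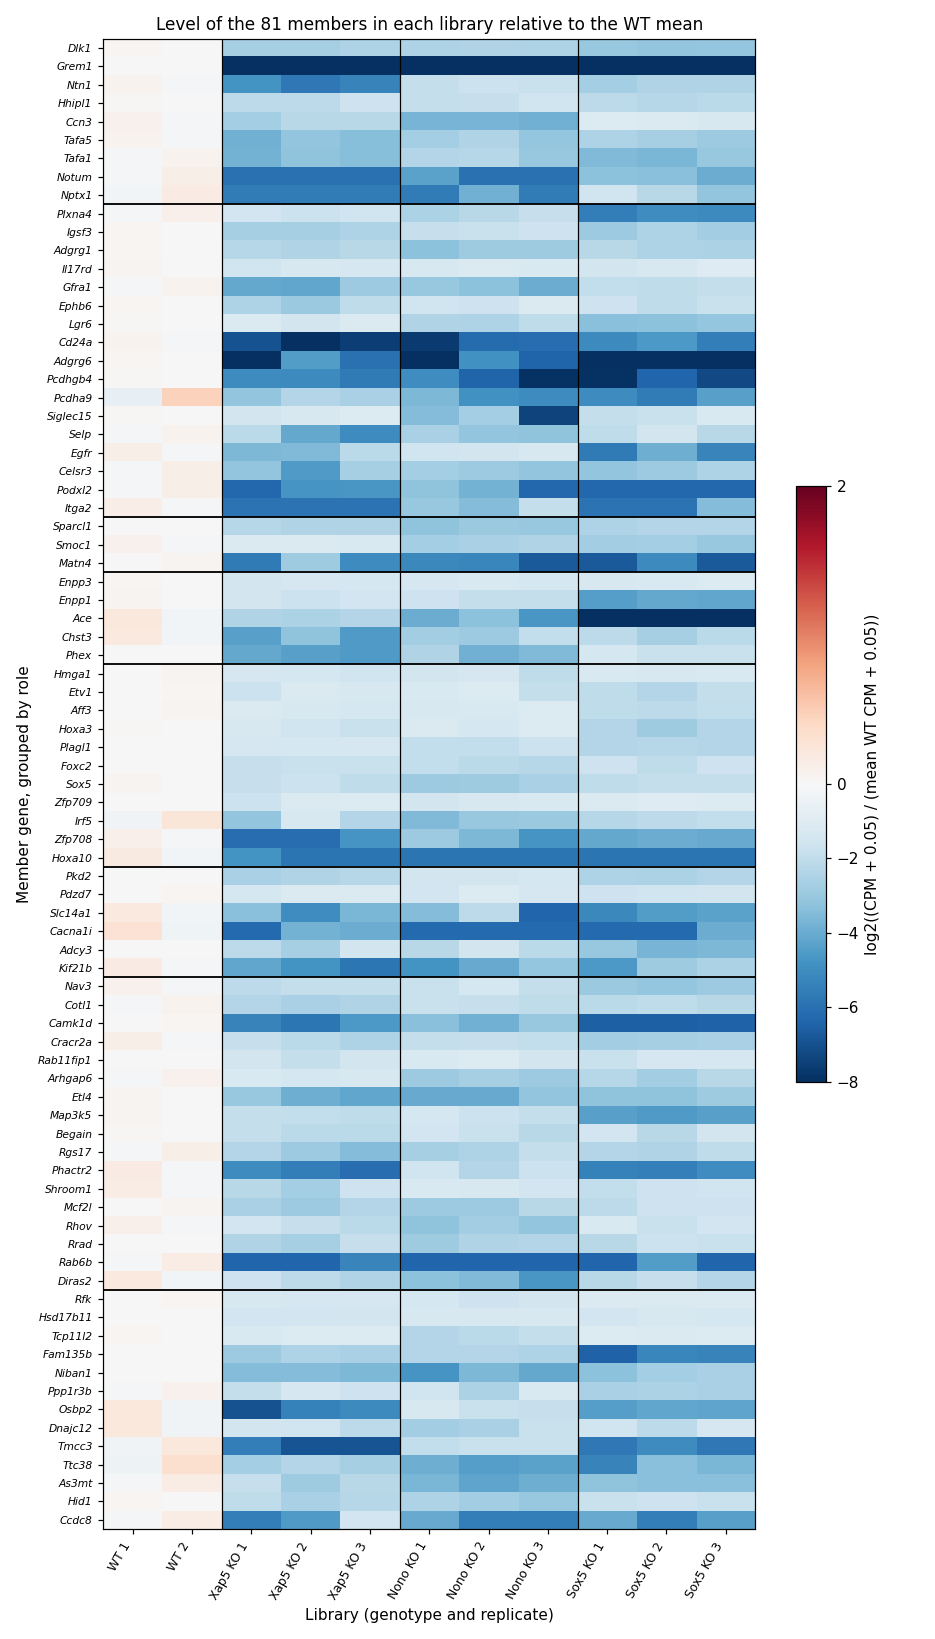
Level of each of the 81 genes (rows, grouped by role) in each of the 11 libraries (columns), as log2 of the CPM over the WT mean with 0.05 CPM added to both; the colour scale runs from -8 to 2. Every knockout column is below the WT columns by the rule, and the shade within a row differs between the lines, as for Ace, dark in Sox5 KO, and Ccn3, pale in Sox5 KO.

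The role groups used below were drawn up after the values had been seen. For contrasts between lines, log2 differences come from edgeR's quasi-likelihood test on all 13332 tested genes, with p-values adjusted over those genes by the Benjamini-Hochberg method and a call at an adjusted p under 0.05. Percentages of WT are means over 3 libraries relative to the WT mean, with the SD over those 3 libraries. Where 3 values are given for the lines together, they are in the order Xap5 KO, Nono KO, Sox5 KO.

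Secreted and membrane-bound signals made up 9 of the genes, with medians of 8.66%, 15.1% and 15.6% of WT in the 3 lines. Grem1, a secreted antagonist of bone morphogenetic proteins (BMPs), stood at 138 and 140.3 CPM in WT. It had 0.517, 0.351 and 0.511 CPM in Xap5 KO and 0 counts in all 6 libraries of Nono KO and Sox5 KO. Against WT, Nono KO was therefore at least 1910-fold and Sox5 KO at least 1463-fold lower, whereas a trace of 0.331% ± 0.0679 of WT (SD, n = 3) was read in Xap5 KO. The Xap5 KO level was at least 6.31 times the floor in Nono KO (edgeR adjusted p = 1.66e-07) and at least 4.84 times that in Sox5 KO (edgeR adjusted p = 2.97e-07).

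Dlk1, a membrane-bound and shed relative of Notch ligands and an imprinted gene, had the highest WT level in CPM, 1696 and 1614. Its levels were 257, 265 and 295 in Xap5 KO, 298, 307 and 304 in Nono KO and 205, 186 and 198 in Sox5 KO. The 3 lines did not overlap, and the order was Nono KO, then Xap5 KO, then Sox5 KO. Xap5 KO lay below Nono KO with a log2 difference of -0.27 (SE 0.0541, edgeR adjusted p = 0.000306), and Xap5 KO exceeded Sox5 KO by 0.41 (SE 0.0545, edgeR adjusted p = 1.17e-06). Begain, a synaptic scaffold-associated protein, is the neighbour of Dlk1 among the tested genes of chromosome 12 and stood at 23.4% ± 2.55, 28.1% ± 6.15 and 30.7% ± 8.22 of WT in the 3 lines (SD, n = 3 each), with no call between lines.

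Ntn1, the secreted guidance cue netrin-1, was lowest in Xap5 KO. It was at 134 and 120.1 CPM in WT, at 4.63, 2.36 and 3.10 in Xap5 KO, at 33.7, 38.7 and 36.4 in Nono KO and at 18.9, 24.2 and 24.0 in Sox5 KO. No library of one line overlapped another. Xap5 KO was lower than Nono KO with a log2 difference of -3.54 (SE 0.204, edgeR adjusted p = 1.05e-07) and lower than Sox5 KO with -2.79 (SE 0.205, edgeR adjusted p = 4.99e-07). Ccn3, a matricellular regulator of growth, showed another order, with 41.5 and 37.0 CPM in WT, 6.00, 8.34 and 8.29 in Xap5 KO, 2.95, 2.92 and 2.65 in Nono KO and 18.3, 17.3 and 16.3 in Sox5 KO. It was highest in Sox5 KO, with a log2 difference of -1.26 of Xap5 KO from it (SE 0.128, edgeR adjusted p = 2.71e-08), and lowest in Nono KO, with a difference of -2.56 between Nono KO and Sox5 KO (SE 0.139, edgeR adjusted p = 1.16e-12).

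Notum, a secreted enzyme that inactivates Wnt ligands, was at 2.88 and 3.42 CPM in WT, at 0 in all Xap5 KO libraries, at 0.118, 0 and 0 in Nono KO and at 0.274, 0.265 and 0.157 in Sox5 KO. It was at least 40.5-fold lower than WT in Xap5 KO and kept 7.36% ± 2.06 in Sox5 KO (SD, n = 3). Nptx1, a secreted pentraxin of synapses, was at 2.06 and 2.65 CPM in WT, at 0 in Xap5 KO, at 0, 0.115 and 0 in Nono KO and at 0.732, 0.463 and 0.220 in Sox5 KO. It was at least 30.3-fold lower than WT in Xap5 KO, and Sox5 KO stood at least 6.06-fold above Xap5 KO (edgeR adjusted p = 0.000423). The other secreted members were Hhipl1, a relative of a Hedgehog-binding protein, at 26.6%, 29.1% and 22.2% of WT in the 3 lines, and the small chemokine-like proteins Tafa5 at 8.96%, 15.1% and 15.6% and Tafa1 at 8.66%, 17.0% and 9.31%.

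**Figure D2:**
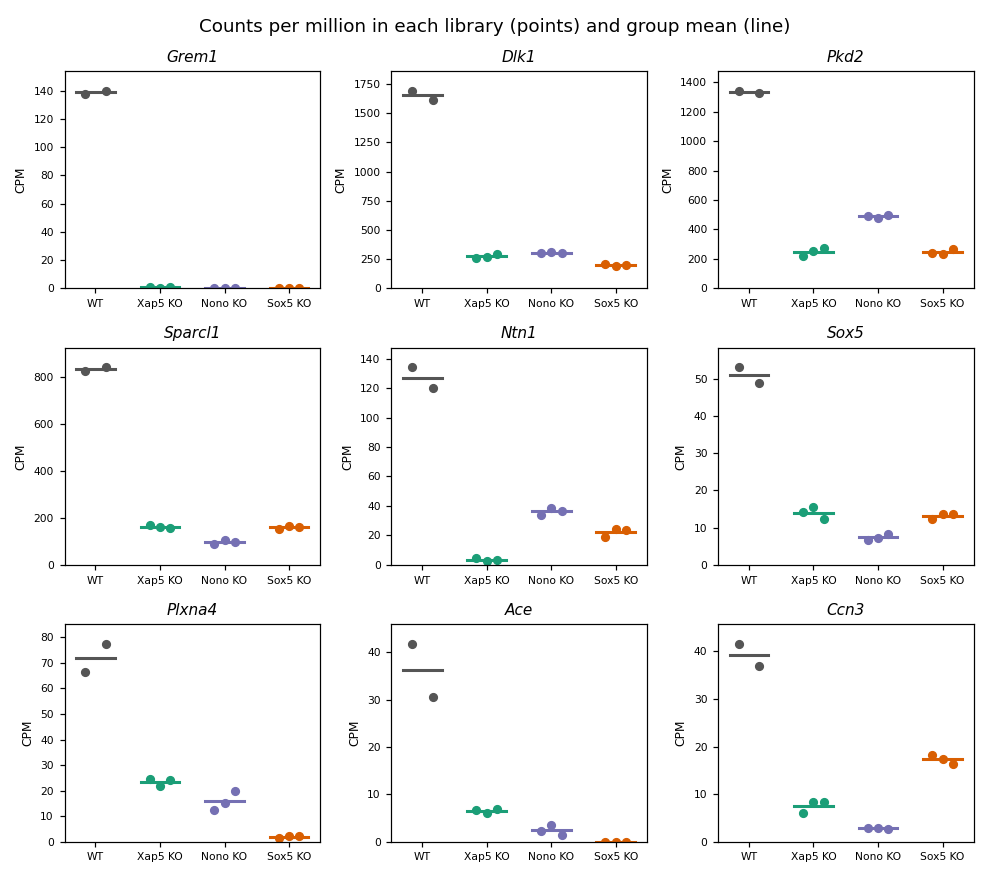
CPM in each library (points) and the group mean (line) for 9 of the genes in WT (2 libraries) and the 3 knockout lines (3 libraries each), each panel with its own linear axis from 0. Grem1 is near 0 in all knockout libraries, Ntn1 is lowest in Xap5 KO, Plxna4 and Ace are lowest in Sox5 KO, and Ccn3 and Sox5 are lowest in Nono KO.

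Receptors and adhesion proteins made up 17 of the genes, with medians of 12.4%, 12.5% and 10.3% of WT in the 3 lines. Plxna4, a plexin that receives semaphorin guidance signals, was at 66.3 and 77.3 CPM in WT, at 24.5, 21.7 and 24.2 in Xap5 KO, at 12.5, 15.2 and 19.8 in Nono KO and at 1.49, 2.22 and 2.08 in Sox5 KO. The lines did not overlap, and Sox5 KO was the lowest by a wide margin, with a difference of 3.08 on the log2 scale between Nono KO and Sox5 KO (SE 0.179, edgeR adjusted p = 9.79e-11). Lgr6, a receptor for R-spondins that potentiate Wnt signals, followed the same order of lines, with 20 and 19.5 CPM in WT, 8.74, 7.12 and 8.88 in Xap5 KO, 3.72, 3.47 and 4.70 in Nono KO and 1.89, 1.95 and 2.27 in Sox5 KO. Its Xap5 KO level was above that of Sox5 KO by 1.95 on the log2 scale (SE 0.178, edgeR adjusted p = 5.36e-09).

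Egfr, the epidermal growth factor receptor, was at 6.14 and 5.14 CPM in WT, at 0.414, 0.451 and 1.24 in Xap5 KO, at 1.84, 2.02 and 2.29 in Nono KO and at 0.0610, 0.331 and 0.0944 in Sox5 KO. It was highest in Nono KO, above Sox5 KO by 3.70 on the log2 scale (SE 0.529, edgeR adjusted p = 3.01e-06) and the log2 difference of Xap5 KO from Nono KO was -1.67 (SE 0.434, edgeR adjusted p = 0.00277). Gfra1, the co-receptor for the neurotrophic factor GDNF, was at 26.1 and 29.1 CPM in WT, at 1.55, 1.5 and 3.69 in Xap5 KO, at 3.37, 2.85 and 1.73 in Nono KO and at 6.92, 6.75 and 7.24 in Sox5 KO. Here Sox5 KO was the highest line, with a log2 difference of -1.34 of Nono KO from it (SE 0.295, edgeR adjusted p = 0.00131), and the Xap5 KO and Nono KO libraries overlapped. Ephb6, an ephrin receptor without kinase activity, was at 22.8 and 21.6 CPM in WT, at 4.03, 2.83 and 5.44 in Xap5 KO, at 7.45, 7.15 and 9.72 in Nono KO and at 7.01, 5.36 and 6.36 in Sox5 KO. Xap5 KO was below Nono KO with a log2 difference of -1.10 (SE 0.193, edgeR adjusted p = 6.32e-05), although the highest Xap5 KO library overlapped Sox5 KO.

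Igsf3, a membrane protein of the immunoglobulin superfamily, was at 60.6 and 57.5 CPM in WT, at 9.52, 9.47 and 10.6 in Xap5 KO, at 16.2, 17.2 and 19.1 in Nono KO and at 7.96, 10.6 and 8.72 in Sox5 KO. Xap5 KO and Sox5 KO overlapped and both lay below Nono KO. Adgrg1, an adhesion receptor that binds collagen, was at 51.9 and 49.2 CPM in WT, at 10.4, 9.30 and 10.9 in Xap5 KO, at 5.11, 7.01 and 6.99 in Nono KO and at 10.8, 9.07 and 8.84 in Sox5 KO. It was lowest in Nono KO, with a log2 difference of -0.54 from Sox5 KO (SE 0.135, edgeR adjusted p = 0.00148).

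Near-absent receptors differed in which line retained a trace. Cd24a, a glycosylated surface protein used as a marker of progenitor cells, was at 20.4 and 18.6 CPM in WT, at 0.103, 0 and 0.0538 in Xap5 KO, at 0.0471, 0.230 and 0.237 in Nono KO and at 0.518, 0.761 and 0.378 in Sox5 KO. Sox5 KO kept 2.83% ± 0.995 of WT (SD, n = 3) and was the highest line, with a log2 difference of -1.63 of Nono KO from it (SE 0.476, edgeR adjusted p = 0.00542). Itga2, the collagen-binding integrin alpha-2 subunit, was at 3.28 and 2.72 CPM in WT, at 0 in all Xap5 KO libraries, at 0.330, 0.230 and 0.762 in Nono KO and at 0, 0 and 0.220 in Sox5 KO. Nono KO was at least 5.66-fold above Xap5 KO (edgeR adjusted p = 0.000655). Podxl2, a sialomucin that can bind selectins, was at 3.55 and 4.17 CPM in WT, at 0, 0.1 and 0.108 in Xap5 KO, at 0.377, 0.230 and 0 in Nono KO and at 0 in Sox5 KO, which was at least 40.6-fold lower than WT. The mean Nono KO level was at least 2.13-fold above Sox5 KO (edgeR adjusted p = 0.00724), although 1 Nono KO library had no counts.

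Pcdhgb4, a clustered protocadherin, was at 12.1 and 11.7 CPM in WT, at 0.310, 0.301 and 0.188 in Xap5 KO, at 0.330, 0.0920 and 0 in Nono KO and at 0, 0.0993 and 0.0315 in Sox5 KO, at least 126-fold lower than WT. Pcdha9, of the alpha cluster, was the gene on which the WT libraries differed most, at 5.37 and 11.8 CPM, and kept 15.3% ± 4.11, 4.36% ± 2.89 and 2.81% ± 1.46 in the 3 lines (SD, n = 3 each). Both share constant exons with the rest of their clusters, so their counts are uncertain. Of the 4 other tested alpha-cluster genes, 2, 2 and 1 were called lower than WT in the 3 lines and 0 higher, with median log2 fold changes of -1.58, -1.90 and -1.62. The gamma cluster was mixed: of 21 other tested genes, 3 were lower and 5 higher than WT in Xap5 KO, 1 lower and 5 higher in Nono KO, and 5 lower and 3 higher in Sox5 KO. Among the remaining receptors, Il17rd, which dampens fibroblast growth factor signals, stood at 38.0%, 42.8% and 41.8% of WT in the 3 lines, and Celsr3, a planar polarity cadherin, at 9.42%, 12.5% and 13.2%. Adgrg6, an adhesion receptor needed for myelination, was at 1.81% and 1.32% in Xap5 KO and Nono KO and at least 138-fold lower than WT in Sox5 KO. Selp, the adhesion molecule P-selectin, was at 9.85%, 12.1% and 27.0%, and Siglec15, a sialic acid-binding receptor of osteoclasts, at 40.7%, 7.86% and 32.3%.

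The 3 matrix proteins included Sparcl1, a secreted relative of SPARC, which was abundant at 822 and 839 CPM in WT. Its levels were 170.2, 160.0 and 158 in Xap5 KO, 91.0, 107 and 99.6 in Nono KO and 153, 165 and 162 in Sox5 KO. Nono KO lay below both other lines, which overlapped; its log2 difference from Sox5 KO was -0.64 (SE 0.0636, edgeR adjusted p = 1.68e-08). Smoc1, a calcium-binding protein of the same domain family, was at 44.9%, 16.6% and 13.6% of WT in the 3 lines, and Matn4, a matrilin, at 5.44% and 1.21% in Xap5 KO and Nono KO and at least 53.9-fold lower than WT in Sox5 KO.

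The 5 ectoenzymes and matrix-modifying enzymes were led by Enpp3, a nucleotide pyrophosphatase, at 64.5 and 61.0 CPM in WT. It was at 22.5, 24.3 and 23.4 in Xap5 KO, at 25.2, 27.2 and 23.9 in Nono KO and at 26.1, 27.4 and 30 in Sox5 KO, so that the lines lay within a narrow band near the threshold. Its neighbour Enpp1, which makes pyrophosphate and restrains mineralization, had a far wider spread, at 33.8% ± 2.87, 28.1% ± 2.64 and 5.22% ± 0.591 of WT in the 3 lines (SD, n = 3 each), and Xap5 KO exceeded Sox5 KO by 2.64 on the log2 scale (SE 0.145, edgeR adjusted p = 2.17e-12). Ace, the angiotensin-converting enzyme, was at 41.7 and 30.6 CPM in WT, at 6.75, 6.09 and 6.97 in Xap5 KO, at 2.24, 3.63 and 1.39 in Nono KO and at 0 counts in the 3 Sox5 KO libraries. Sox5 KO was at least 380.0-fold lower than WT, at least 69.5-fold lower than Xap5 KO (edgeR adjusted p = 1.85e-07) and at least 25.5-fold lower than Nono KO (edgeR adjusted p = 1.98e-06). Chst3, which sulfates chondroitin, was at 5.07%, 16.6% and 19.1% of WT in the 3 lines, and Phex, a peptidase of phosphate balance, at 3.49%, 10.0% and 30.5%; both were lowest in Xap5 KO.

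Transcription factors and chromatin proteins made up 11 of the genes and held higher medians, 34.5%, 26.8% and 23.5% of WT in the 3 lines. Hmga1, an architectural chromatin protein, was at 585 and 634 CPM in WT, at 236, 228 and 205 in Xap5 KO, at 217, 239.5 and 147 in Nono KO and at 261, 256 and 266 in Sox5 KO. It was not called in any contrast between lines, its libraries in Nono KO and Xap5 KO overlapped, and those of Sox5 KO were the highest. Etv1, an ETS factor, was at 97.4 and 102 CPM in WT, at 30.4, 44.2 and 40.2 in Xap5 KO, at 43.2, 45.9 and 26.8 in Nono KO and at 24.4, 19.5 and 26.6 in Sox5 KO, which was lower than Xap5 KO by 0.64 on the log2 scale (SE 0.224, edgeR adjusted p = 0.0366).

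Sox5, the gene targeted in 1 of the lines, was at 53.0 and 48.8 CPM in WT. Its levels were 14.3, 15.5 and 12.4 in Xap5 KO, 6.69, 7.15 and 8.33 in Nono KO and 12.4, 13.6 and 13.7 in Sox5 KO. Its RNA was thus no lower in the line named for it than in Xap5 KO, with a log2 difference of 0.03 between the lines (SE 0.115, edgeR adjusted p = 0.852), and lowest in Nono KO, below Sox5 KO by a log2 difference of -0.79 (SE 0.119, edgeR adjusted p = 5.62e-06). A total gene count does not show which exons remain, and an antisense gene overlaps exons of Sox5.

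Aff3, a subunit of transcription elongation complexes, was at 80.2 and 86.0 CPM in WT, at 36.9, 34.8 and 31.7 in Xap5 KO, at 33.8, 35.4 and 38.8 in Nono KO and at 20.2, 19.2 and 21.6 in Sox5 KO. Hoxa3, a homeobox factor of anterior-posterior patterning, was at 70.6 and 68.1 CPM in WT, at 28.1, 23.2 and 20.5 in Xap5 KO, at 31.5, 26.3 and 32.3 in Nono KO and at 13.4, 9.63 and 13.6 in Sox5 KO. Both were lowest in Sox5 KO without overlap; Nono KO exceeded Sox5 KO by 0.87 for Aff3 (SE 0.0870, edgeR adjusted p = 1.78e-08) and by 1.35 for Hoxa3 (SE 0.138, edgeR adjusted p = 2.31e-07). Plagl1, an imprinted zinc finger factor of growth control, was at 68.2 and 68.7 CPM in WT, at 27.5, 25.6 and 26.9 in Xap5 KO, at 17.1, 17.3 and 20.7 in Nono KO and at 13.6, 14.1 and 13.4 in Sox5 KO. All 3 lines were separated, from Xap5 KO down to Sox5 KO, by 0.90 on the log2 scale (SE 0.0920, edgeR adjusted p = 3.07e-08).

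Foxc2, a forkhead factor of mesenchyme and vessels, was at 65.0 and 64.8 CPM in WT, at 18.0, 18.7 and 18.5 in Xap5 KO, at 16.5, 14.8 and 13.3 in Nono KO and at 21.0, 15.9 and 20.4 in Sox5 KO. The lines lay close together, and the call between them was Nono KO below Sox5 KO with a log2 difference of -0.31 (SE 0.105, edgeR adjusted p = 0.0136). Hoxa10, another homeobox factor, was at 3.15 and 2.39 CPM in WT and at the floor in all 3 lines, with 0.0517 CPM in 1 Xap5 KO library and 0 in the 8 others. It was at least 35.6-fold, 38.0-fold and 29.1-fold lower than WT in the 3 lines. Among other tested genes of the Hoxa cluster, Hoxa2, Hoxa5, Hoxa6 and Hoxa7 were called lower than WT in each line. The 14 tested Hoxb, Hoxc and Hoxd genes were mixed, with 7 lower and 2 higher in Xap5 KO, 2 lower and 4 higher in Nono KO, and 3 lower and 4 higher in Sox5 KO. The remaining factors were the zinc finger proteins Zfp709, at 40.6%, 40.0% and 46.9% of WT in the 3 lines, and Zfp708, at 6.99% and 4.69% in Nono KO and Sox5 KO and at least 43.4-fold below WT in Xap5 KO, and Irf5, an interferon regulatory factor, at 23.6%, 10.7% and 22.6%.

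The 6 genes of cilium, channel, transporter and motor proteins were led by Pkd2, polycystin-2, a cation channel of the primary cilium that is mutated in polycystic kidney disease. It was at 1344 and 1328 CPM in WT, at 221, 254 and 271 in Xap5 KO, at 489, 477 and 497 in Nono KO and at 240.0, 229.9 and 263 in Sox5 KO. Nono KO kept 36.5% ± 0.766 of WT (SD, n = 3) and stood above Sox5 KO by 1.05 on the log2 scale (SE 0.0613, edgeR adjusted p = 4.04e-12), while the other lines overlapped. Per kilobase of longest transcript, Pkd2 stood at a WT level of 256 CPM per kb, beside 356 for Dlk1, 305 for Hmga1 and 301 for Sparcl1.

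Adcy3, an adenylyl cyclase of the ciliary membrane, was at 3.62 and 3.64 CPM in WT, at 0.802, 0.526 and 1.27 in Xap5 KO, at 0.754, 1.26 and 0.788 in Nono KO and at 0.396, 0.232 and 0.252 in Sox5 KO. It was lowest in Sox5 KO, where Nono KO exceeded it by 1.71 on the log2 scale (SE 0.493, edgeR adjusted p = 0.00467). Pdzd7, a scaffold of hair cell stereocilia, stood at 42.7%, 39.9% and 33.2% of WT in the 3 lines, and Kif21b, a kinesin motor, at 1.93%, 5.34% and 10.1%. Slc14a1, a urea transporter, was at 5.76%, 9.99% and 2.97%. Cacna1i, a T-type calcium channel subunit, was at 3.68% and 1.68% in Xap5 KO and Sox5 KO and at least 51.5-fold lower than WT in Nono KO.

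Kinases, small GTPases, their regulators and cytoskeletal proteins made up 17 of the genes, with medians of 22.3%, 20.2% and 20.6% of WT in the 3 lines. Nav3, a microtubule-binding protein, was at 63.9 and 56.3 CPM in WT, at 14.1, 16.1 and 15.7 in Xap5 KO, at 17.7, 22.7 and 16.0 in Nono KO and at 7.53, 7.05 and 7.96 in Sox5 KO. Sox5 KO was lowest without overlap, and Nono KO exceeded it by 1.37 on the log2 scale (SE 0.123, edgeR adjusted p = 3.53e-09). Rab6b, a small GTPase of Golgi traffic, was at 3.52 and 4.41 CPM in WT, at 0, 0 and 0.0538 in Xap5 KO, at 0 in Nono KO and at 0, 0.132 and 0 in Sox5 KO. It was at least 51.0-fold and 54.4-fold lower than WT in Xap5 KO and Nono KO and kept 1.11% ± 1.93 in Sox5 KO (SD, n = 3), with no call between lines.

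Among the other kinases, Camk1d, a calcium-dependent kinase, stood at 2.70%, 9.46% and 0.992% of WT in the 3 lines, and Map3k5, a stress-activated kinase, at 25.6%, 31.7% and 4.43%. Both were lowest in Sox5 KO, where Nono KO exceeded it by 3.29 for Camk1d (SE 0.283, edgeR adjusted p = 3.73e-09) and by 2.88 for Map3k5 (SE 0.220, edgeR adjusted p = 2.83e-10). Phactr2, a regulator of actin and of protein phosphatase 1, kept 27.1% in Nono KO and 1.86% and 2.20% in Xap5 KO and Sox5 KO. Arhgap6, which inactivates small GTPases, kept 40.5% in Xap5 KO and 13.9% and 18.8% in Nono KO and Sox5 KO.

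The small GTPase genes Rhov, Diras2 and Rrad stood at 28.0%, 24.1% and 19.8% of WT in Xap5 KO, at 11.6%, 6.41% and 16.4% in Nono KO and at 34.6%, 22.1% and 26.4% in Sox5 KO. Cotl1, an actin-binding protein, was at 18.3%, 27.3% and 22.6% in the 3 lines, Shroom1, another actin-associated protein, at 22.3%, 39.4% and 29.7%, and Etl4 at 7.86%, 7.54% and 11.4%. Rgs17, which shortens G protein signals, was at 13.8%, 20.2% and 20.6%, and Mcf2l, an activator of small GTPases, at 16.1%, 15.5% and 28.7%. Rab11fip1, an effector of endosome recycling, stood at 32.8%, 42.4% and 36.1%, and Cracr2a, a calcium-sensing GTPase, at 22.6%, 26.1% and 15.4%. The last of this group is Begain, described with Dlk1.

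The last 13 genes act in metabolism and other functions. Rfk, riboflavin kinase, was at 183 and 192 CPM in WT, at 76.8, 75.1 and 74.6 in Xap5 KO, at 69.5, 60.7 and 67.8 in Nono KO and at 85.2, 83.3 and 83.6 in Sox5 KO. Hsd17b11, a dehydrogenase of lipid droplets, was at 164 and 167 CPM in WT, at 57.9, 57.1 and 59.6 in Xap5 KO, at 67.0, 68.9 and 69.5 in Nono KO and at 57.8, 68.5 and 63.4 in Sox5 KO. Both had narrow spreads within and between the lines, and the log2 difference between Nono KO and Sox5 KO was -0.30 for Rfk (SE 0.0596, edgeR adjusted p = 0.000159) and 0.16 for Hsd17b11 (SE 0.0646, edgeR adjusted p = 0.0323). Tcp11l2 was at 82.8 and 78.2 CPM in WT, at 34.4, 38.4 and 38.2 in Xap5 KO, at 15.7, 18.2 and 21.9 in Nono KO and at 37.3, 36.1 and 36.9 in Sox5 KO. Nono KO was lowest without overlap, with a log2 difference of -0.94 from Sox5 KO (SE 0.0956, edgeR adjusted p = 2.47e-08).

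Tmcc3, a membrane protein of the endoplasmic reticulum, was at 4.92 and 6.82 CPM in WT, at 0.0776, 0 and 0 in Xap5 KO, at 1.48, 1.68 and 1.71 in Nono KO and at 0.0610, 0.132 and 0.0629 in Sox5 KO. Nono KO kept 27.6% ± 2.07 of WT (SD, n = 3), at least 20.9-fold above Xap5 KO (edgeR adjusted p = 1.44e-07) and above Sox5 KO by 4.26 on the log2 scale (SE 0.567, edgeR adjusted p = 1.15e-06). Osbp2, an oxysterol-binding protein, had the same order, with 1.25%, 32.6% and 4.39% of WT in the 3 lines. Fam135b stood at 15.7%, 19% and 1.85%, and Ppp1r3b, which targets a phosphatase to glycogen, at 32.7%, 30.8% and 16.3%. Niban1, induced by stress of the endoplasmic reticulum, was at 8.61%, 5.76% and 13.9%, and Dnajc12, a co-chaperone, at 30.5%, 19.3% and 31.1%. As3mt, which methylates arsenic, was at 20.1%, 5.40% and 8.94%, Ttc38 at 16.0%, 4.46% and 5.71%, and Hid1, of secretory vesicle traffic, at 19.1%, 13.6% and 29.0%. Ccdc8, a partner of the CUL7 ligase complex, was at 11.9% ± 18.7 and 1.39% ± 2.41 in Xap5 KO and Nono KO (SD, n = 3 each) and at least 23.8-fold lower than WT in Sox5 KO.

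None of the lines was the lowest throughout. The lowest mean level fell in Xap5 KO for 26 genes, in Nono KO for 27 and in Sox5 KO for 28, and the highest in 26, 29 and 26. In the 3 lines, 19, 13 and 23 genes stood at or under 5% of WT, and 7, 4 and 8 genes were at the floor. The median coefficient of variation of triplicates was 15.4%, 16.4% and 13.3% among genes above 0.5 CPM in the line. Against WT, edgeR called 80, 81 and 80 of the 81 genes lower in the 3 lines, Siglec15 being the exception in Xap5 KO and in Sox5 KO. Over all tested genes, 22.3%, 25.1% and 30.3% were called lower and 23.2%, 23.5% and 30.6% higher. Since the rule used this contrast, nothing is read from these counts.

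For Xap5 KO against Nono KO, 20 members of the set were higher in Xap5 KO (24.7%, beside 27.1% of all tested genes) and 24 in Nono KO (29.6%, beside 25.9%). Between Xap5 KO and Sox5 KO, 24 were higher in Xap5 KO (29.6%, beside 31.1%) and 21 in Sox5 KO (25.9%, beside 30.4%). Between Nono KO and Sox5 KO, 29 were higher in Nono KO (35.8%, beside 30.9%) and 18 in Sox5 KO (22.2%, beside 32.6%). In all, 65 genes (80.2%) were called in at least 1 contrast between lines, as were 80.7% of all tested genes. By number of calls, the 81 genes therefore lay near the background of the table, with the widest gap for genes higher in Sox5 KO than in Nono KO. That gap was not tested and is not read as a property of the 81 genes. With library totals, 27 were higher in Nono KO and 20 in Sox5 KO. Of all calls between Xap5 KO and Nono KO, 51.1% were higher in Xap5 KO; with library totals in place of TMM factors the share was 64.3%, and 22 of the 81 genes were higher in Xap5 KO and 21 in Nono KO.

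Calls of at least 2-fold in either direction numbered 27 (33.3%, beside 11.1% of all tested genes) for Xap5 KO against Nono KO, 29 (35.8%, beside 15.0%) for Xap5 KO against Sox5 KO and 28 (34.6%, beside 17.0%) for Nono KO against Sox5 KO. The rule selects low levels in the knockout lines: 72.8%, 74.1% and 70.4% of the 81 genes had at least 10 counts in every library of the 3 lines, against 89.9%, 90.2% and 88.8% of tested genes. The gap to the background is therefore not read as a property of the 81 genes.

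**Figure D3:**
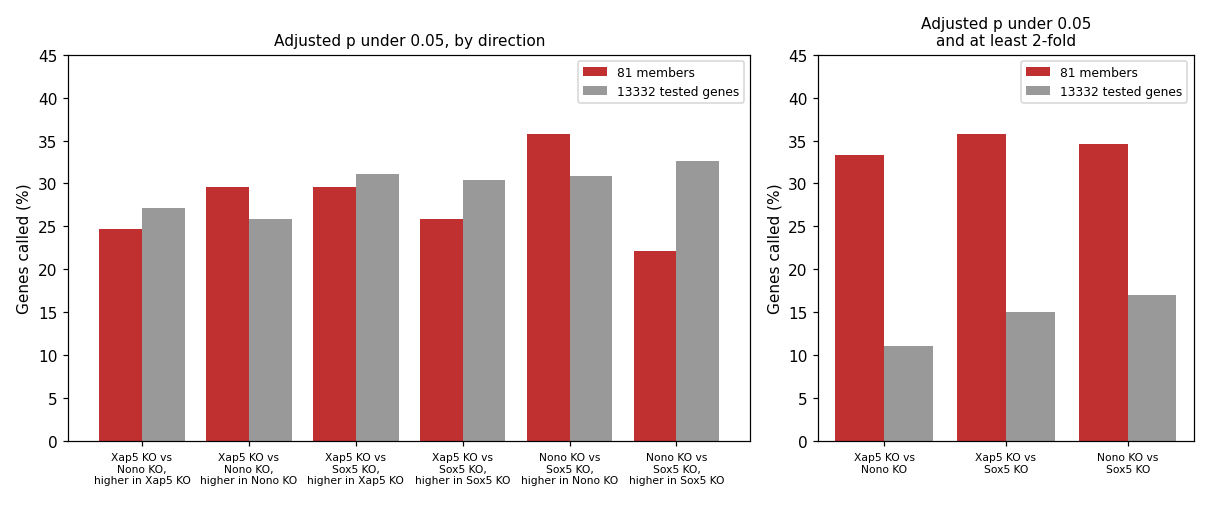
Percentage of the 81 genes (red) and of all 13332 tested genes (grey) called between knockout lines, by direction at an adjusted p under 0.05 (left) and at that threshold with at least a 2-fold difference either way (right). On the left, red and grey bars lie close together, the widest gap being 22.2% against 32.6% for genes higher in Sox5 KO than in Nono KO; on the right, red bars stand at 33.3% to 35.8% and grey bars at 11.1% to 17.0%.

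A step for 1 line, meaning a call against both other lines in the same direction, was seen for each line. Lower in Sox5 KO than in both others were 17 genes (21%, beside 20.5% of tested genes): Dlk1, Etv1, Aff3, Plxna4, Hoxa3, Plagl1, Nav3, Camk1d, Enpp1, Ace, Cracr2a, Fam135b, Lgr6, Map3k5, Ppp1r3b, Egfr and Adcy3. Lower in Xap5 KO than in both others were 12 genes (14.8%, beside 13.0%): Hsd17b11, Ntn1, Enpp3, Cotl1, Tafa5, Ephb6, Cd24a, Osbp2, Zfp708, Chst3, Itga2 and Phex. Lower in Nono KO than in both others were 9 genes (11.1%, beside 15.3%): Sparcl1, Tcp11l2, Sox5, Adgrg1, Ccn3, Irf5, Siglec15, Rhov and Diras2.

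Higher than in both other lines were 15 genes in Nono KO (18.5%, beside 14.5% of tested genes), among them Pkd2, Dlk1, Ntn1, Tmcc3, Itga2 and Egfr. In Xap5 KO there were 9 (11.1%, beside 13.2%), among them Grem1, Plxna4, Ace, Smoc1 and Arhgap6, and in Sox5 KO 9 (11.1%, beside 20.9%), among them Ccn3, Gfra1, Cd24a, Nptx1 and Phex. No call between lines was made for 16 genes: Hmga1, Il17rd, Zfp709, Etl4, Begain, Adgrg6, Rgs17, Pdzd7, Dnajc12, Rrad, Celsr3, Rab6b, Slc14a1, Hid1, Hoxa10 and Ccdc8. For these a missed threshold does not show equal levels: the log2 difference between Xap5 KO and Nono KO was -0.28 with an SE of 0.119 in Il17rd, but 0.33 with an SE of 1.35 in Adgrg6.

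Of 14 function lists, 8 held 18 of the genes. In the BMP and TGF-beta list, which includes Grem1, 27 of the 44 other tested genes were called lower and 6 higher than WT in Xap5 KO, 19 lower and 11 higher in Nono KO, and 26 lower and 6 higher in Sox5 KO. Their median log2 fold changes were -0.26, -0.01 and -0.67, beside 0.00, -0.02 and -0.01 over all tested genes, of which 22.3%, 25.1% and 30.3% were called lower and 23.2%, 23.5% and 30.6% higher. The list thus held more lower than higher calls in all 3 lines, while its median lay below that of all tested genes in Xap5 KO and Sox5 KO only. All list counts use TMM scaling, under which 50.9%, 48.4% and 50.2% of all calls against WT were higher in the 3 lines, against 43.9%, 30.2% and 41% with library totals. The extracellular matrix list, which includes Sparcl1, leaned the other way in Nono KO, where 47 of its 64 other genes were higher and 6 lower, with 30 higher and 22 lower in Xap5 KO and 31 higher and 23 lower in Sox5 KO.

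Among developmental transcription factors, which include Sox5, Foxc2 and Hoxa10, 34 of 75 other genes were lower and 19 higher in Xap5 KO, 26 lower and 19 higher in Nono KO, and 42 lower and 9 higher in Sox5 KO. The axon guidance and adhesion list, with Plxna4, Ntn1, Ephb6 and Itga2, had 20 of 63 other genes lower and 27 higher in Xap5 KO, 14 lower and 34 higher in Nono KO, and 28 lower and 13 higher in Sox5 KO. The median log2 fold changes in the 3 lines were -0.20, -0.13 and -0.59 for the developmental factors and 0.15, 0.51 and -0.38 for the axon guidance list. Both lists thus held more lower than higher calls in Sox5 KO, and the developmental factors also in the other two lines. The primary cilium list, with Pkd2 and Adcy3, had 16 of 75 other genes lower and 11 higher in Xap5 KO, 16 lower and 14 higher in Nono KO, and 34 lower and 11 higher in Sox5 KO, with median log2 fold changes of -0.05, -0.12 and -0.23. Lower calls exceeded higher calls by the most in Sox5 KO, but with library totals in place of TMM factors the cilium list had 38 lower and 7 higher in Nono KO beside 39 lower and 8 higher in Sox5 KO.

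The Wnt list, with Lgr6 and Notum, had 10 of 36 other genes lower and 12 higher in Xap5 KO, 9 lower and 14 higher in Nono KO, and 15 lower and 9 higher in Sox5 KO. Growth factor ligands and receptors, with Egfr, Gfra1 and Ccn3, had 12 of 46 others lower and 21 higher in Xap5 KO, 8 lower and 20 higher in Nono KO, and 16 lower and 19 higher in Sox5 KO. The imprinted list, with Dlk1 and Plagl1, had 7 of 17 others lower and 4 higher in Xap5 KO, 5 lower and 5 higher in Nono KO, and 7 lower and 7 higher in Sox5 KO. In these 3 lists the other genes went both ways, and the balance differed between the lines. Median log2 fold changes in the 3 lines were 0.02, 0.13 and -0.25 for the Wnt list. They were 0.26, 0.15 and 0.15 for the growth factor list and -0.28, -0.43 and 0.00 for the imprinted list. The lists of matrix proteases, chemokines and cytokines, interferon-stimulated genes, Hedgehog signalling, smooth muscle genes and adipogenic genes held 0 of the 81 genes.

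The genes were unevenly placed along the genome. Chromosome 10 held 13 of them (16.0%), beside 4.82% of tested genes: Rgs17, Plagl1, Phactr2, Adgrg6, Map3k5, Enpp1, Enpp3, Cd24a, Chst3, Dnajc12, Tcp11l2, Tmcc3 and Nav3. The first 7 of these lay among the first 100 tested genes of that chromosome. The other genes of chromosome 10 were also lower than WT, with median log2 fold changes of -0.45, -0.13 and -0.31 in the 3 lines. Of them, 61.4%, 30.2% and 44.9% were called lower, beside 22.3%, 25.1% and 30.3% of all tested genes. In Nono KO, the medians of chromosomes 5, 6, 7 and X were lower still, at -0.20, -0.17, -0.18 and -0.33. These chromosomes held 3, 9, 1 and 2 of the 81 genes. The SD of the chromosome 10 median over libraries of a line was 0.0148, 0.0117 and 0.0172. It does not cover the choice of processing: under the alternatives, 16 values of these medians moved by at least that SD and 41 did not. Scaling by library totals alone moved the Nono KO median of all tested genes from -0.02 to -0.18. Scaling each library by the median ratio to WT of the same chromosome was a choice made after the placement had been seen. With it, 61 genes met the rule, 60 of them among the 81, and 8 of the 13 on chromosome 10 were kept. CPM on TMM-scaled library sizes, with no scaling by chromosome, also left 61 genes. The losses under scaling by chromosome are therefore not read as particular to a chromosome.

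Chromosome 6 held 9 of the genes (11.1%, beside 4.72% of tested genes), with median log2 fold changes of its other genes of -0.25, -0.17 and -0.33 in the 3 lines, and 6 were kept after scaling by chromosome. Chromosome 8 held 8 (9.88%, beside 5.36%), with -0.35, -0.12 and 0.24, and 5 were kept. Chromosome 11 also held 8, nearer its share of tested genes (9.88%, beside 8.20%), with 0.01, 0.03 and 0.16, and 6 were kept. Chromosome 12 held 6 (7.41%, beside 3.35%), with -0.15, 0.00 and -0.73, and 3 were kept. Of the genes called lower in Sox5 KO than in both other lines, Dlk1, Etv1 and Adcy3 lie on chromosome 12. Smoc1 and Hhipl1, on the same chromosome, also had their lowest mean in Sox5 KO, without a call against both other lines. On that chromosome, 73.0% of the other tested genes were called lower than WT in Sox5 KO.

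Some of the genes were neighbours. On chromosome 5, Hsd17b11, Sparcl1 and Pkd2 lay in a run of 8 consecutive tested genes that were all called lower than WT in all 3 lines, a run noticed after the values had been seen. Nudt9, an ADP-ribose pyrophosphatase, had log2 fold changes of -0.90, -1.09 and -0.51 in the 3 lines (edgeR adjusted p = 7.03e-08, 3.12e-09 and 6.39e-05). Spp1, the phosphoprotein osteopontin, had -0.69, -0.51 and -1.89 (edgeR adjusted p = 5.69e-07, 2.38e-05 and 7.22e-14), and Thoc2l had -0.64, -0.54 and -1.32 (edgeR adjusted p = 4.12e-05, 0.000206 and 9.14e-10). The changes of these non-members were smaller than those of Sparcl1 and Pkd2.

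Dmp1, a phosphoprotein of bone and dentin, was at 3.60 and 3.98 CPM in WT, at 0.207, 1.2 and 1.94 in Xap5 KO, at 0.636, 1.01 and 0.499 in Nono KO and at 0, 0.0993 and 0.220 in Sox5 KO. Its edgeR adjusted p was 0.0445, 0.0112 and 3.89e-05 in the 3 lines. Over the alternatives the Xap5 KO value ran from 0.0105 to 0.164, and that call was lost without WT 1, WT 2, Xap5 KO 1, Xap5 KO 2, Nono KO 1 or Sox5 KO 2 (adjusted p from 0.0538 to 0.164); the Nono KO call was lost without WT 2 (0.0638). Dspp, another dentin phosphoprotein, had 24 and 18 counts in WT and 0 in the 9 knockout libraries. The run ended at Klhl8 on one side, which was not called in any line, and at Zfp951 on the other, which was called lower in Sox5 KO alone. Other neighbours within the set were Enpp1 and Enpp3 on chromosome 10, Begain and Dlk1 on chromosome 12, and Siglec15 and Slc14a1 on chromosome 18, with no tested gene between them. Plagl1 and Phactr2 were separated by Ltv1, whose log2 fold changes were -0.14, 0.22 and 0.30.

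**Figure D4:**
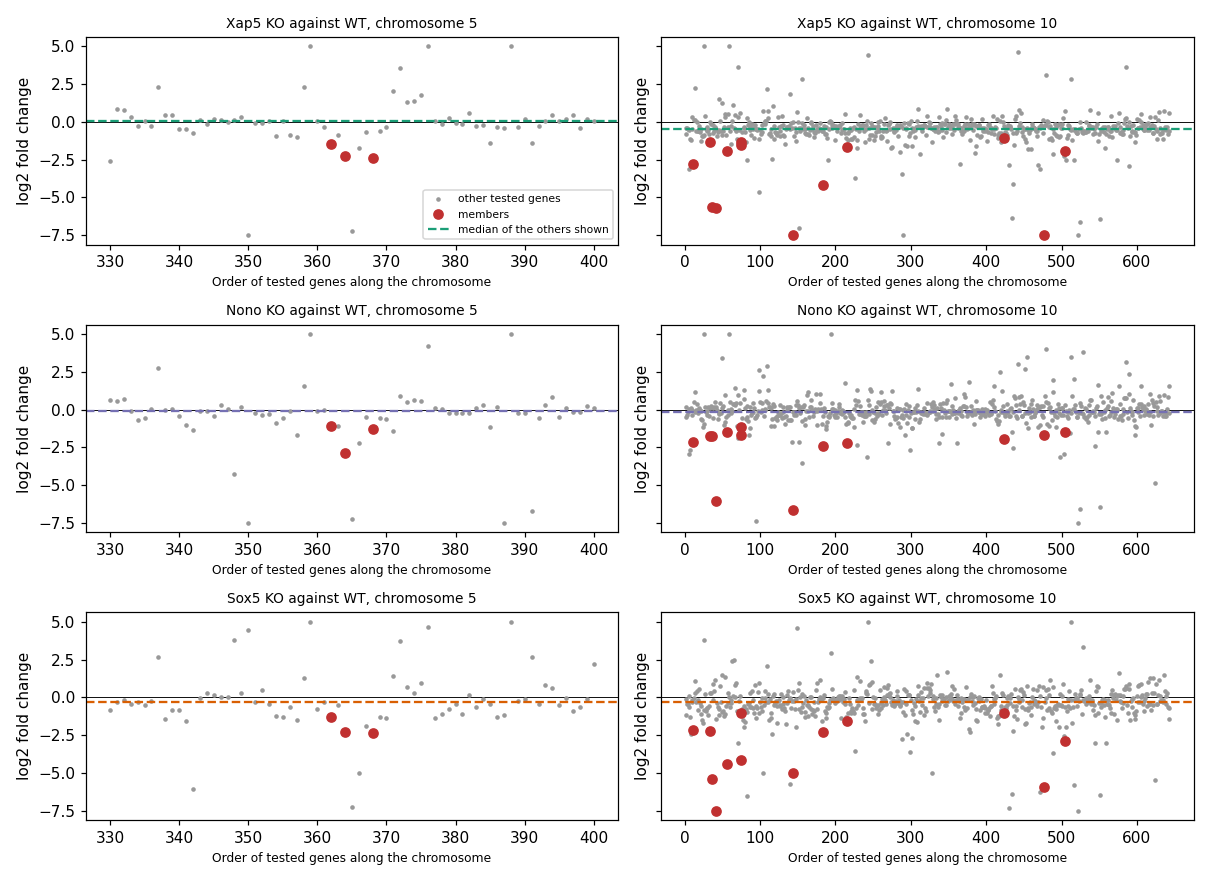
Log2 fold change against WT of tested genes in their order along chromosome 5 (left, the genes around the run) and chromosome 10 (right, all 643 tested genes), with 1 row of panels per knockout line; red points are members of the set, grey points other tested genes, and the dashed line the median of the grey points. Values past the axis limits are drawn at the limit. On chromosome 10 the dashed line lies at -0.45, -0.13 and -0.31 from the top panel down, and the red points crowd at the left end; on chromosome 5 they fall within a short run of genes below 0.

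Exons of 28 of the 81 genes overlapped those of another gene in the GENCODE M21 annotation, 8 of them on the same strand (Arhgap6, Celsr3, Cracr2a, Hoxa3, Mcf2l, Pcdha9, Pcdhgb4 and Zfp708). How reads were divided among overlapping genes, and whether strand was used, is not given in the sources used here, so the counts of these 28 genes are uncertain.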

How the data were processed

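Per the file headers, the authors deposited 1 table of gene counts with gene IDs and symbols for the 11 libraries. The deposited values are whole numbers and were handled as rounded estimated counts, since 2 occurs more often than 1. Per the submitters' processing notes, HISAT2 2.1.0, StringTie 1.3.3b, DESeq2 1.12.4 and the builds GRCm39 and mm39 were named, with no roles. Chromosome, gene order, transcript length and exon overlap came from the GENCODE M21 annotation of GRCm38, matched by gene ID, so no coordinates on the authors' build are printed.

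The members and the function lists were chosen with earlier results of these data known, and the role groups after the values were seen. CPM in the rule used column totals. All contrasts came from edgeR 4.0.16 (R 4.3.3), fitted once to all 11 libraries: TMM scaling, edgeR's expression filter (minimum count 10, minimum total 15), a robust quasi-likelihood fit with 1 mean per group, and Benjamini-Hochberg adjustment over 13332 genes. The common biological coefficient of variation was 10.6%. Each SE was derived from the test, as the absolute log2 fold change over the square root of its F statistic. Lower bounds and intervals at the floor cover counting error only. The script was tested on simulated data.

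Values in every library are given for the 20 members highest in WT, the 5 with the smallest ratio of knockout to WT, the 3 called members with the largest difference in each of 3 contrasts between knockouts, the targeted gene in the set, and members of the function lists; 5 genes on each side of the threshold are named. Alternatives were other thresholds and scaling in the rule, DESeq2 1.42.0, other normalization and filters, a replicate block, leaving out each library, and scaling by chromosome, the last chosen after seeing the data. Libraries of a group differed by more than sampling noise, and all 11 were counted. Results for some genes outside the set are not reported here.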

Additional observations from a re-analysis of the deposited data

Results flagged for a closer look

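Genes whose drop against WT differed most between knockout lines, by edgeR's quasi-likelihood test of the difference, are given here with the fitted log2 difference of the first line named from the second. The differences were chosen for their size, so their values are descriptions. Grem1 had 7.08 for Xap5 KO against Nono KO and 7.08 for Xap5 KO against Sox5 KO. Ace had 10.92 for Xap5 KO against Sox5 KO and 9.60 for Nono KO against Sox5 KO. Tmcc3 had -5.90 for Xap5 KO against Nono KO and 4.26 for Nono KO against Sox5 KO. Itga2 had -7.13 for Xap5 KO against Nono KO, Nptx1 had -7.19 for Xap5 KO against Sox5 KO, and Podxl2 had 6.04 for Nono KO against Sox5 KO. Except for 4.26 in Tmcc3, each contrast has 1 line at the floor, so the fitted value depends on the prior count and is no bound; the bounds stand in the results. All 9 kept their call in the 18 alternatives run for each.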

How the results depend on the processing

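The number of members followed the threshold: 151 genes met 0.6 times the lower WT value, 54 met 0.4, 95 met the rule with WT CPM of at least 1, 59 with at least 5, and 61 with CPM on TMM-scaled library sizes. Leaving out 1 library gave 81 to 106 genes, the largest numbers without WT 1 (106) and WT 2 (104). Members that differed between lines numbered 44, 45 and 47 for Xap5 KO against Nono KO, Xap5 KO against Sox5 KO and Nono KO against Sox5 KO. With a 2-fold minimum they numbered 27, 29 and 28, because that asks for more, and 27 of the 49 genes left with at least 10 counts in every library differed between Xap5 KO and Sox5 KO (55.1%, beside 68.3% of all genes under that filter; 55.6% and 61.6% without it), a lower count because fewer members were tested. Leaving out 1 library gave 39 to 46, 36 to 48 and 40 to 49.

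Same-numbered libraries of different groups did not deviate together (correlations from -0.023 to 0.046), so the numbers were not taken as pairs; with the replicate block, 42, 42 and 48 members differed. Scaling by library totals moved the median log2 fold change of all tested genes against WT from 0.00, -0.02 and -0.01 with TMM to -0.05, -0.18 and -0.12 in the 3 lines, in the order used above, while DESeq2 size factors left it within 0.01 of 0. Single genes were followed through the alternatives only for the differences flagged above and for Nudt9, Dmp1, Spp1 and Thoc2l against WT. Of these 387 values, 372 kept their call and 15 lost it, and none reversed. Calls for other single members were not followed in this way. With 2 WT libraries, 1 WT library can move membership, and at 3 or fewer counts per library the depth does not separate absence from a low level.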
